A study of Mus musculus with 4 samples.

Results

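The genes described here are 10 members of the Notch pathway: the 4 receptors Notch1, Notch2, Notch3 and Notch4, the ligands Jag1 and Jag2, the receptor-modifying enzyme Lfng, and the target genes Hes1, Hey1 and Heyl. They were chosen by symbol, with earlier results of these data known, and 9 of the 10 had a row among the 21971 genes of the count table. Heyl had no row and is not analysed here. All 9 rows entered the test, and 8 averaged 1 CPM or more over the libraries (CPM, the count scaled to library size after TMM normalization). Notch3, the exception, was close to the limit of detection.

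The measurements are RNA-seq counts from total RNA, with ribosomal RNA depleted, of NMuMG, a line of epithelial cells that was derived from healthy mammary gland of the mouse. A control line stably expressed TRF1ΔN, a mutated human TRF1 (a protein that binds telomere repeats). The other line stably expressed Vp16-TRF1ΔN, in which the same mutated protein is joined to a viral transcription activation domain, and which the study used to raise RNA like TERRA, the long non-coding RNA made from telomeres. Each line was sequenced at 0 h, without TGFβ, and after 24 h with TGFβ at 5 ng/ml, the treatment used to drive epithelial-to-mesenchymal transition (EMT), so that 4 groups of 1 library each were available. Both lines therefore carry mutated TRF1, untransfected cells are not part of the comparison, and TGFβ and 24 h of further culture cannot be told apart. The study asked how TERRA-like RNA alters the EMT signature.

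Notch receptors are single-pass membrane proteins that are activated by ligands of the Jagged and Delta-like families on a neighbouring cell. Pulling on the ligand exposes the receptor to ADAM proteases and then to γ-secretase, which frees the intracellular domain to enter the nucleus, bind RBPJ and Mastermind proteins, and switch on Hes and Hey genes. Fringe enzymes such as Lfng add sugars to the receptor and alter its preference for Delta-like over Jagged ligands. In epithelia, Jagged ligands and Hey repressors are known to be induced by TGFβ during EMT, and Notch1 and Notch2 act in mammary cell fate.

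The libraries held 35423556 to 46001039 counts and 19411 to 20047 detected genes. The Vp16 row of the table held 0 and 1 counts in the TRF1ΔN libraries and 15 and 27 in the Vp16-TRF1ΔN libraries, as labelled, while the TRF1ΔN row held 1863 and 7798 counts in the control line and 123 and 159 in the other. The lines thus differed in the level of the construct as well as in its activation domain. In the control line that level was also higher at 24 h than at 0 h. The part of the construct level in the line differences, in the TGFβ responses and in their difference between the lines was not tested. Epithelial markers (Krt8, Krt18, Krt7, Krt19, Cdh1 and Epcam) summed to 6096 to 6386 CPM in the 4 libraries, but their members moved in different directions with TGFβ. Krt19 fell from 1565 to 82.7 CPM in TRF1ΔN cells and from 1648 to 270.03 CPM in Vp16-TRF1ΔN cells (adjusted p = 0.00544 by the edgeR test described below), and Cdh1 fell from 366 to 107 CPM and from 368 to 166 CPM (adjusted p = 0.00398). Krt8 and Krt18 rose by 0.30 and 0.56 on the log2 scale, Krt7 did not pass the test, and Epcam had at most 18 counts. With 1 library per group there is no replicate spread, and all counting intervals given are 95% intervals that cover counting error only.

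With TGFβ, the receptor and ligand RNAs of these cells moved in opposite directions within each family. Notch1 and Jag2 fell, and Notch2, Notch4, Jag1 and Lfng rose, whereas Hes1, Hey1 and Notch3 did not pass the test. Jag1 was 9.28-fold and 5.15-fold higher in the 2 lines, Notch4 10.6-fold and 6.72-fold higher, and Notch1 10.6-fold and 4.99-fold lower. The test was edgeR's quasi-likelihood F-test on counts from all 4 libraries, fitted over 14305 genes with line and TGFβ as additive terms and Benjamini-Hochberg adjustment, and it called 4 of 9 members risen and 2 of 9 fallen at an adjusted p under 0.05. Over all genes tested, 23.1% rose and 25.4% fell, so the share of members that fell is near the background. The median log2 change was 0.15 over the members, which is the value of Hey1 alone, and -0.01 over all genes tested.

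**Figure D1:**
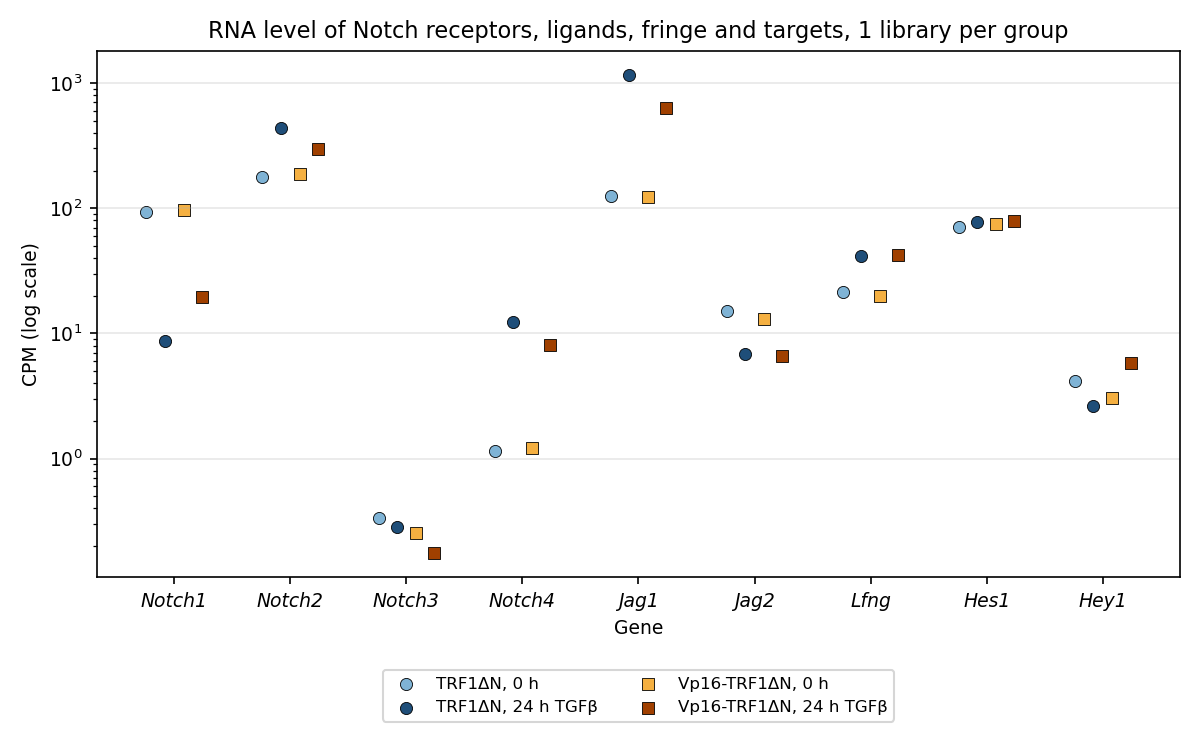
CPM on a log axis (y) for the 9 members with a row (x), 1 point per library, with circles for the TRF1ΔN line, squares for the Vp16-TRF1ΔN line, pale at 0 h and dark after 24 h of TGFβ. The 0 h points of the 2 lines lie close together for every member that averaged 1 CPM or more, Hey1 being the widest apart at 4.14 and 3.06 CPM, and the 24 h points lie further apart for Notch1, Notch2, Notch4, Jag1 and Hey1.

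To show what lies upstream of the genes that changed most, and of Lfng, the bases before the RefSeq start (GRCm38.p6) are given for Notch1, Notch4, Jag1 and Lfng, read on the gene's strand from 5′ to 3′. Entries were matched for 7 of the 10 members, the other three being Hes1, Hey1 and Heyl. Each window was 250 bases and is printed only as far as any annotated untranslated region. Capitals mark matches, on either strand, to the RBPJ core TGGGAA, the SMAD element CAGAC or the E-box CACGTG. The 4 stretches are chr2:26503823-26504072 on the minus strand for Notch1 (the GENCODE gene model reaches further upstream than this start), chr17:34564045-34564267 on the plus strand for Notch4, chr2:137116645-137116770 on the minus strand for Jag1 and chr5:140607091-140607319 on the plus strand for Lfng.
Notch1: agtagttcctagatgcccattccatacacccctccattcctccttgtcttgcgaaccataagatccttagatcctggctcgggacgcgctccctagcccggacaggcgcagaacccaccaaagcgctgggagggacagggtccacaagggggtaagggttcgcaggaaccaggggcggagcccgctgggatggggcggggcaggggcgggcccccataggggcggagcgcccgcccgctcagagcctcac
Notch4: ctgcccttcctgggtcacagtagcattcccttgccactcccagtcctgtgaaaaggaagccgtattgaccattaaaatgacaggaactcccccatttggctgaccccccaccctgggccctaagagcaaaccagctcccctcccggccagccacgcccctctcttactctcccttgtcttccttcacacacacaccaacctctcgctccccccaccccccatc
Jag1: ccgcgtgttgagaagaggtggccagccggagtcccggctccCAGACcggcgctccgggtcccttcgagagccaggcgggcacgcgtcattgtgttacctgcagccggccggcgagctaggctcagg
Lfng: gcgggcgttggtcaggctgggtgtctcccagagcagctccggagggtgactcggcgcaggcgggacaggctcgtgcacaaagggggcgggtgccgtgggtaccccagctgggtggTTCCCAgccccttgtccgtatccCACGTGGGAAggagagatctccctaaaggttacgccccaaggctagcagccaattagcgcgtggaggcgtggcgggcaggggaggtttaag

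Only the Lfng window, of the 7 searched, held the RBPJ core, once as TTCCCA at 135 bases before the start and once as TGGGAA at 108 bases before it. The latter shares 2 bases with an E-box at 112 bases before the start. Of all 32851 windows of that length, 21.6% held the RBPJ core and 6.02% the E-box. The SMAD element, held by 42.2% of all windows, was found in Jag1 at 209 bases before the start and in Notch3. None of the 3 motifs was found in Notch1, Notch2, Notch4 or Jag2. All 250 bases of the Jag2 window and 124 bases of the Jag1 window lay past a start annotated further upstream. The Jag2 window thus held no sequence upstream of that start. These are matches of letters, and binding was not measured.

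Among the receptors, Notch1 (ENSMUSG00000026923, mm10 chr2:26457903-26516663, minus strand) lost most of its RNA. It had 92.5 CPM (4405 counts) in TRF1ΔN cells at 0 h and 8.69 CPM (366 counts) at 24 h, and 96.8 CPM (4174 counts) and 19.4 CPM (665 counts) in Vp16-TRF1ΔN cells. Both 24 h libraries were far below both 0 h libraries, and the 24 h library of the Vp16-TRF1ΔN line kept the higher level. The average log2 change was -2.85 ± 0.28 (SE; adjusted p = 0.00314). In the separate lines Notch1 was 10.6-fold lower (counting interval 9.56 to 11.9) and 4.99-fold lower (4.60 to 5.42).

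Notch2 (ENSMUSG00000027878, chr3:98013527-98150361, plus strand), the most abundant receptor in every library, rose. It had 178 CPM at 0 h and 441 CPM at 24 h in TRF1ΔN cells, and 188 and 295 CPM in Vp16-TRF1ΔN cells. Both 24 h libraries were above both 0 h libraries, with the TRF1ΔN library the higher. The average log2 change was 0.98 ± 0.17 (adjusted p = 0.0122), from ratios of 2.48 (2.41 to 2.54) and 1.56 (1.52 to 1.61).

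Notch4 (ENSMUSG00000015468, chr17:34564268-34588503, plus strand), a receptor best known from endothelium and from mouse mammary tumours in which virus insertion activates it, started near 1 CPM and rose. Its counts were 55 and 515 in TRF1ΔN cells and 52 and 278 in Vp16-TRF1ΔN cells, which is 1.15 and 12.2 CPM, then 1.21 and 8.11 CPM. The 0 h libraries had almost the same level, and both 24 h libraries stood clear above them. The log2 change was 3.09 ± 0.22 (adjusted p = 0.00171), with ratios of 10.6 (8.01 to 14.3) and 6.72 (4.99 to 9.23). Beside this rise, the summed CPM of the endothelial list was 0.315 and 1.45 in TRF1ΔN cells and 0.278 and 0.992 in Vp16-TRF1ΔN cells. Of its 9 genes 5 had a row and 0 reached a mean of 1 CPM, and the largest of them, Cdh5, had 4, 50, 5 and 24 counts in the order TRF1ΔN 0 h, 24 h, Vp16-TRF1ΔN 0 h, 24 h. From these few counts Cdh5 was called risen by edgeR's test (log2 change 3.21 ± 0.45, adjusted p = 0.00680). Pecam1, a defining marker, had at most 3 counts.

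Notch3 (ENSMUSG00000038146, chr17:32120820-32166852, minus strand), a receptor of smooth muscle and pericytes, had 16 and 12 counts in TRF1ΔN cells and 11 and 6 in Vp16-TRF1ΔN cells. Its log2 change of -0.35 ± 0.41 did not pass the test (adjusted p = 0.513, fitted interval -1.45 to 0.74). At this depth, log2 changes down to -1.45 or up to 0.74 thus remain within the interval. Of the 8 smooth muscle and pericyte markers, 5 had a row and 1, Mcam, reached a mean of 1 CPM. That list summed to 0.882 and 11.9 CPM in TRF1ΔN cells and 0.858 and 4.61 CPM in Vp16-TRF1ΔN cells, almost all of the 24 h level from Mcam, while Myh11 had 0, 3, 0 and 1 counts. The fibroblast list also summed higher at 24 h (1.32 and 21.3 CPM, then 1.88 and 11.8 CPM). Of its 6 genes 4 had a row and 2, Col1a1 and Pdgfra, made up nearly all of the sum, while Dcn was at 0 in both 24 h libraries. The immune list lay between 3.04 and 3.48 CPM. The part of these genes in the Notch changes was not tested, and in bulk RNA a change in the number of cells and in RNA per cell cannot be told apart.

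To compare receptors with each other, CPM was divided by the kilobases of each gene's exon union, giving RPKM. At 0 h, Notch2 stood at 16.5 and 17.5 RPKM in the TRF1ΔN and Vp16-TRF1ΔN lines, Notch1 at 6.50 and 6.80, Notch4 at 0.143 and 0.150, and Notch3 lower still. At 24 h, Notch2 reached 40.9 and 27.3 RPKM. Notch4 then exceeded Notch1 in TRF1ΔN cells (1.52 against 0.611 RPKM), and Notch1 exceeded Notch4 in Vp16-TRF1ΔN cells (1.36 against 1.01 RPKM).

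The receptor pool thus became almost wholly Notch2. As a share of all receptor RPKM, Notch1 was 28.0% and 27.8% at 0 h in the 2 lines and 1.42% and 4.59% at 24 h, and Notch2 went from 71.2% and 71.4% to 94.97% and 92.0%. Notch4 went from 0.618% and 0.612% to 3.53% and 3.39%. The summed receptor level was 23.2 and 24.5 RPKM at 0 h and 43.0 and 29.7 RPKM at 24 h, so it was higher with TGFβ in both lines despite the loss of Notch1. With exon lengths of the GENCODE basic transcripts only, the Notch1 share was 36.2% and 36.0% at 0 h, and 2.05% and 6.52% at 24 h. The summed receptor level was then 26.9 and 28.4 RPKM at 0 h, and 44.8 and 31.4 RPKM at 24 h.

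**Figure D2:**
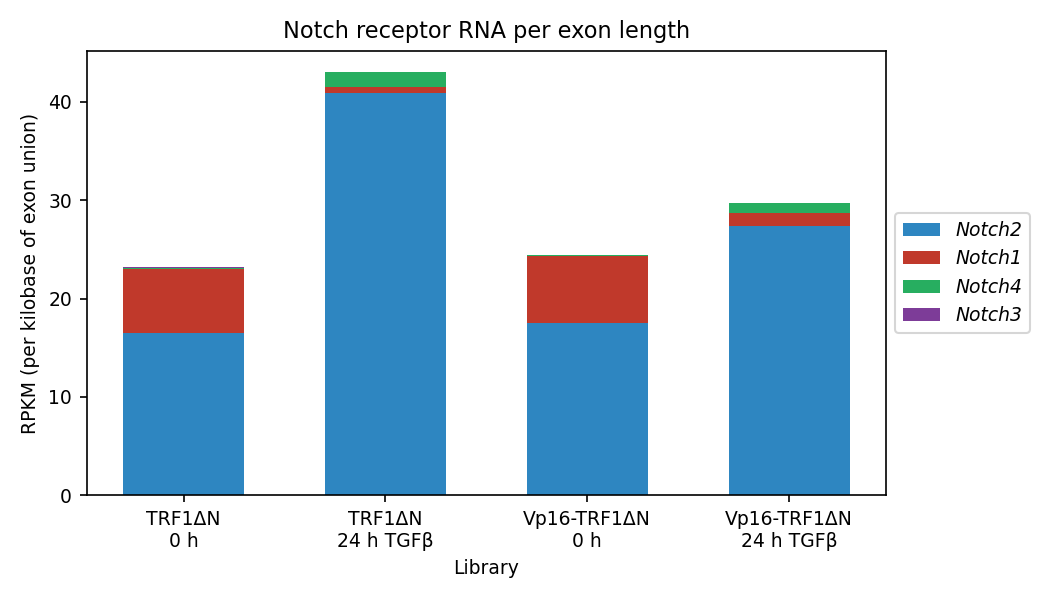
Receptor RNA per kilobase of exon union (RPKM, y) in each of the 4 libraries (x), stacked by receptor. Notch1 makes up 28.0% and 27.8% of the bars at 0 h and 1.42% and 4.59% at 24 h, and Notch3 is too low to be seen.

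Overlapping annotation could touch the receptor counts slightly, and whether reads were counted by strand is not stated in the labels. The antisense gene 0610009E02Rik covers 7.50% of the Notch1 exon bases and had 17, 8, 24 and 10 counts, and Gm42820 covers 5.02% of the Notch2 exon bases on the same strand and had 54, 106, 47 and 48 counts. On the opposite strand, Gm13568 covers 2.91% of the Notch1 exon bases and Gm17276 covers 6.03% of the Notch3 exon bases. No gene overlapped the exons of Notch4, Jag1, Jag2, Lfng, Hes1 or Hey1.

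Of the ligands, Jag1 (ENSMUSG00000027276, chr2:137081456-137116644, minus strand) had the highest level per length of all members after TGFβ. It had 126 CPM (5986 counts) and 1165 CPM (49059 counts) in TRF1ΔN cells, and 123 CPM (5308 counts) and 634 CPM (21724 counts) in Vp16-TRF1ΔN cells. The lines were alike at 0 h within a few percent, and both 24 h libraries were several-fold above them. The average log2 change was 2.79 ± 0.23 (adjusted p = 0.00216). The ratio was 9.28 (9.03 to 9.53) in TRF1ΔN cells and 5.15 (5.00 to 5.31) in Vp16-TRF1ΔN cells.

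Jag2 (ENSMUSG00000002799, chr12:112907819-112929776, minus strand), the other Jagged ligand, fell. It had 15.2 and 6.87 CPM in TRF1ΔN cells and 13.0 and 6.57 CPM in Vp16-TRF1ΔN cells. The 2 lines were alike within counting error at 24 h. At 0 h the level was 1.17-fold lower in Vp16-TRF1ΔN cells (1.05 to 1.31). Its log2 change was -1.07 ± 0.11 (adjusted p = 0.00353), being 2.22-fold lower (1.93 to 2.55) and 1.98-fold lower (1.70 to 2.32). Jag1 made up 90.8% and 91.9% of Jagged RPKM at 0 h and 99.5% and 99.1% at 24 h, so a pool already dominated by Jag1 became more so.

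Lfng (ENSMUSG00000029570, chr5:140607320-140615545, plus strand), the Lunatic fringe glycosyltransferase whose upstream stretch is shown above, rose, with responses in the 2 lines that differed by less than their counting error. It had 21.4 and 41.2 CPM in TRF1ΔN cells and 19.8 and 42.4 CPM in Vp16-TRF1ΔN cells. Its log2 change was 1.02 ± 0.08 (adjusted p = 0.00210), with ratios of 1.93 (1.78 to 2.08) and 2.14 (1.96 to 2.33). The difference between these responses was 0.15 on the log2 scale (interval -0.01 to 0.32).

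Neither measured target passed the test. Hes1 (ENSMUSG00000022528, chr16:30064384-30067796, plus strand), a basic helix-loop-helix repressor and the best known direct target of Notch, had 70.2 and 77.9 CPM in TRF1ΔN cells and 74.8 and 79.3 CPM in Vp16-TRF1ΔN cells. All 4 libraries lay within a narrow range. Its log2 change of 0.12 ± 0.06 did not pass the test (adjusted p = 0.199), and the fitted interval of -0.06 to 0.29 leaves out a change of 1.5-fold. The ratios were 1.11 (1.06 to 1.17) and 1.06 (1.01 to 1.12).

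Hey1 (ENSMUSG00000040289, chr3:8663359-8667256, minus strand), a related repressor, differed between the lines in direction. It had 4.14 CPM (197 counts) and 2.61 CPM (110 counts) in TRF1ΔN cells, and 3.06 CPM (132 counts) and 5.84 CPM (200 counts) in Vp16-TRF1ΔN cells. With TGFβ it was 1.58-fold lower (1.25 to 2.02) in the former and 1.91-fold higher (1.52 to 2.39) in the latter. The average change, 0.15 ± 0.42 on the log2 scale, did not pass the test (adjusted p = 0.793) and describes neither line.

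**Figure D3:**
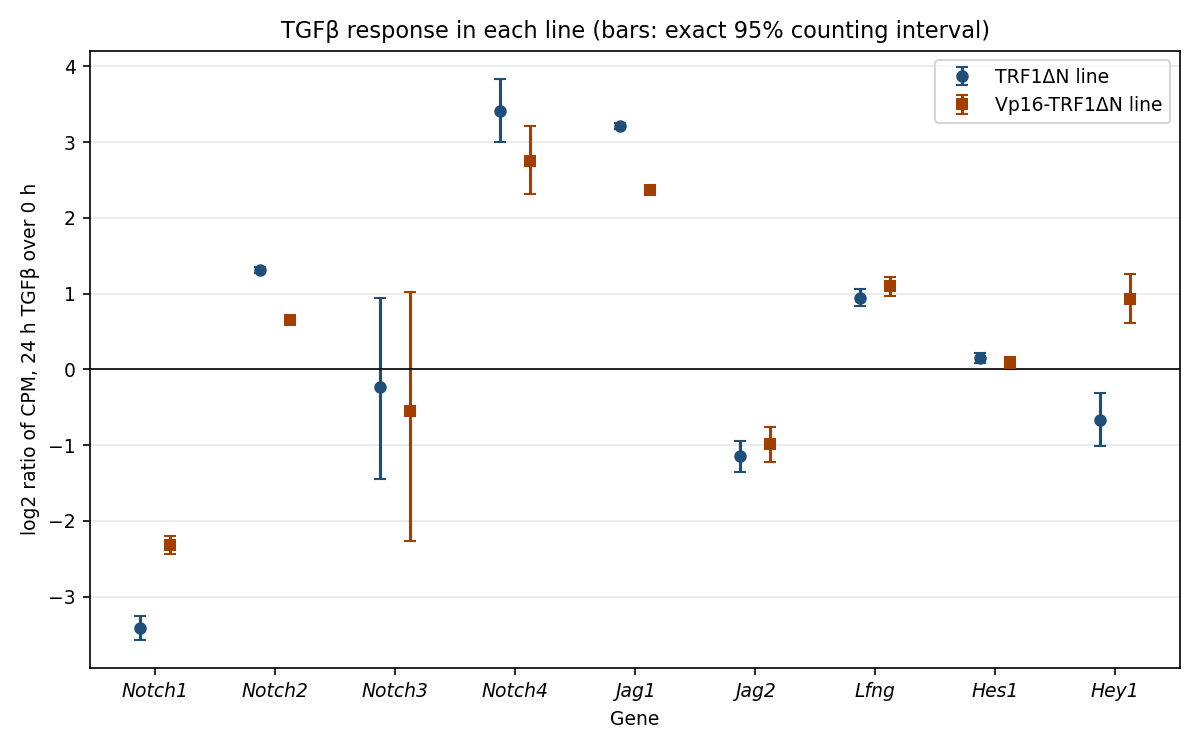
The log2 ratio of CPM at 24 h of TGFβ over 0 h (y) for each member (x) in the TRF1ΔN line (circles) and the Vp16-TRF1ΔN line (squares), with exact 95% counting intervals from 1 library per group. Hey1 lies on opposite sides of 0 in the 2 lines, and the Notch1, Notch2, Notch4 and Jag1 points of the Vp16-TRF1ΔN line lie nearer to 0.

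Ranked per length in TRF1ΔN cells at 0 h, the members ran from Hes1 (34.4 RPKM) through Jag1 (21.6), Notch2 (16.5), Lfng (8.55), Notch1 (6.50), Jag2 (2.18) and Hey1 (1.27 RPKM) to Notch4 and Notch3. At 24 h, Jag1 led in both lines with 200.01 and 109 RPKM. Hes1 (38.3 and 38.9 RPKM) and Notch2 (40.9 and 27.3 RPKM) came next, their order differing between the lines. With basic exon lengths, Hes1 was above Notch2 in both lines at 24 h, and Notch1 was above Lfng at 0 h (9.75 against 9.29 RPKM in TRF1ΔN cells), so these neighbours are not ordered by these data.

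To ask in each line which members moved, members were tallied as changed if they averaged 1 CPM or more, their CPM ratio reached 2 in either direction, and the counting interval left out 1. With 1 library per group these counts are not tests. In TRF1ΔN cells 5 of the 8 members at that level were counted (Notch2, Notch4 and Jag1 higher, Notch1 and Jag2 lower), against 19.5% of all 11777 genes at that level. In Vp16-TRF1ΔN cells 4 of 8 were counted (Notch4, Jag1 and Lfng higher, Notch1 lower), against 16.2% of all genes. The lists differ by 3 genes, Notch2, Jag2 and Lfng, and for Jag2 and Lfng the ratios lay just on either side of 2 with overlapping intervals.

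Between the lines at 0 h, 0 of 8 members were counted, against 0.645% of all genes, the widest being Hey1, 1.35-fold lower in Vp16-TRF1ΔN cells (1.08 to 1.70). At 24 h, 2 of 8 were counted, against 3.43% of all genes. Notch1 was 2.23-fold higher (1.96 to 2.54) and Hey1 2.23-fold higher (1.76 to 2.84) in Vp16-TRF1ΔN cells. Jag1 was 1.84-fold lower there (1.81 to 1.87), while Notch2 stood at 0.669 and Notch4 at 0.663 of the TRF1ΔN level.

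The response itself differed by at least 2-fold for the same 2 members, Notch1 and Hey1, against 2.88% of all genes. The Vp16-TRF1ΔN response minus the TRF1ΔN response was 1.09 on the log2 scale for Notch1 (0.90 to 1.28) and 1.59 for Hey1 (1.13 to 2.05). Jag1 (-0.85, interval -0.91 to -0.79), Notch2 (-0.66, -0.72 to -0.61) and Notch4 (-0.66, -1.24 to -0.07) differed by less, and the intervals for Jag2, Lfng, Hes1 and Notch3 included 0. Of the 8 members, 7 had the same direction in both lines, and 6 of these had the smaller response in Vp16-TRF1ΔN cells. Over all 11777 genes, 10388 had the same direction and 6404 of them the smaller response.

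As an average over both times, the edgeR quasi-likelihood test called 0 members and 0% of all genes different between the lines. At an unadjusted p under 0.05, the count was 0 of 9 members and 1779 of 14305 genes. DESeq2's Wald test called 0 members and 41 genes, and at an unadjusted p under 0.05 its count was 2 of 9 members and 776 of 21971 genes. The fitted line difference was 0.55 (interval -0.17 to 1.27) for Notch1 and -0.46 (-1.03 to 0.12) for Jag1 on the log2 scale, so differences of more than 2-fold remain within the intervals of both.

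**Figure D4:**
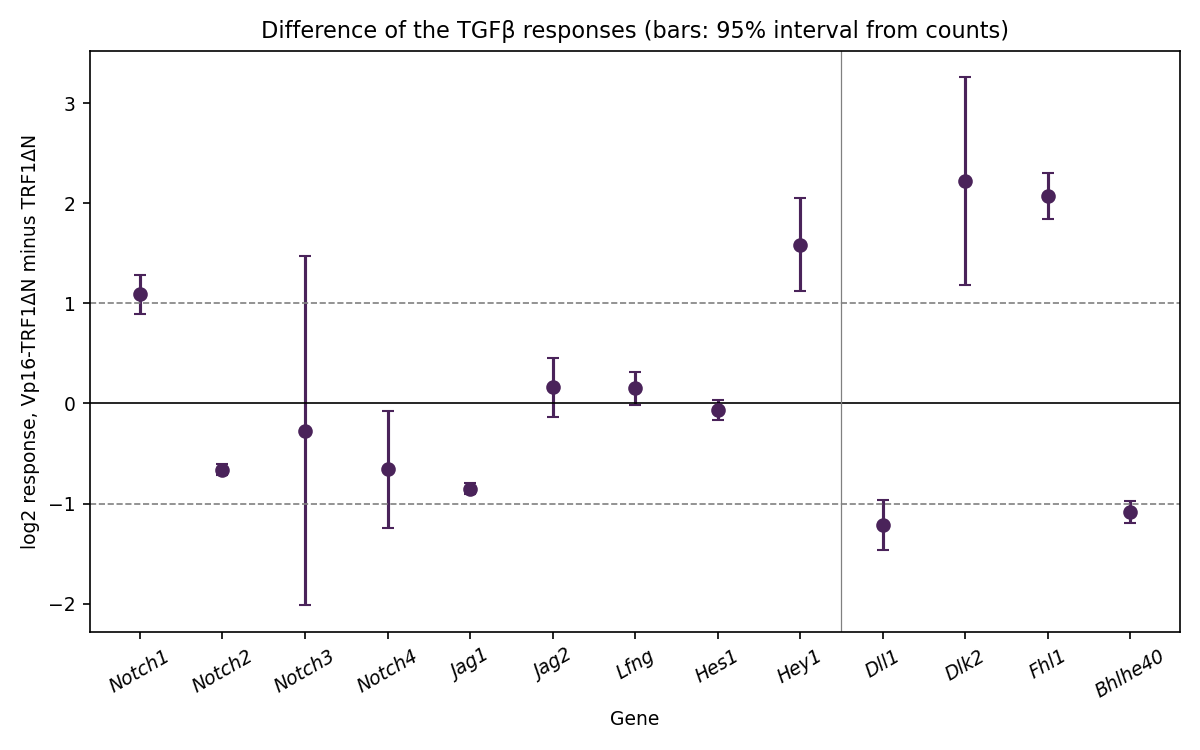
The TGFβ response of the Vp16-TRF1ΔN line minus that of the TRF1ΔN line in log2 units (y) for the 9 members, left of the vertical line, and for 4 other pathway genes counted as different (x), with 95% intervals from the counts. Dashed lines mark a 2-fold difference, and Notch1, Hey1, Dlk2 and Fhl1 lie above the upper line and Dll1 and Bhlhe40 below the lower line. Of 55 other pathway genes averaging 1 CPM or more, 4 were counted, against 2.88% of all genes.

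Around the members, 67 other genes of the pathway were listed by role, of which 62 had a row and 57 were tested. With TGFβ, 24 of 57 rose and 11 fell by the edgeR quasi-likelihood test, with a median log2 change of 0.20, against 23.1% risen and 25.4% fallen over all genes tested. The share that fell is no higher than this background, which is also the one for the counts by role that follow. DESeq2's Wald test called fewer, 17 risen and 4 fallen of 62, against 2161 and 2505 of 21971 genes. No pathway gene was called between the lines on average (0 of 57 by edgeR). At an unadjusted p under 0.05 the edgeR count was 13 of 57, against 1779 of 14305 genes.

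All 3 tested genes among the other ligands passed. Dlk2, a non-canonical ligand that lacks the domain for activating Notch, fell from 10.6 to 0.238 CPM in TRF1ΔN cells and from 7.61 to 0.817 CPM in Vp16-TRF1ΔN cells (log2 change -4.17 ± 0.51, adjusted p = 0.00484). The Delta-like ligand Dll1 rose, from 8.50 to 29.2 CPM and from 9.63 to 14.3 CPM (1.19 ± 0.31, adjusted p = 0.0346). At 24 h Dll1 was 2.05-fold lower in Vp16-TRF1ΔN cells and Dlk2 3.44-fold higher (1.62 to 7.94), both counted as different. Of 55 other pathway genes averaging 1 CPM or more, 2 were counted higher and 1 lower at 24 h. The share over all genes was 3.43%. Dll4, a Delta-like ligand of sprouting vessels, was called risen from very few reads, with 2 and 65 counts in TRF1ΔN cells and 1 and 10 in Vp16-TRF1ΔN cells. Its ratios were 36.8 (9.78 to 310.2) and 12.6 (1.79 to 545.8).

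The ubiquitin ligases that drive ligand endocytosis, the step that gives the pull, all passed edgeR's test, and Mib1 did not pass DESeq2's (adjusted p = 0.0822). Neurl1b, a Neuralized ligase, fell from 297 to 22.2 CPM in TRF1ΔN cells and from 295 to 41.8 CPM in Vp16-TRF1ΔN cells (log2 change -3.28 ± 0.25, adjusted p = 0.00186). Its paralogue Neurl1a rose, from 7.77 to 29.4 CPM and from 4.87 to 23.3 CPM (2.08 ± 0.12, adjusted p = 0.00121). The Mind bomb ligases moved little, with log2 changes of 0.57 for Mib2 and 0.29 for Mib1. Per length at 0 h, Neurl1b stood far above Neurl1a, at 46.9 against 1.07 RPKM in TRF1ΔN cells and 46.6 against 0.669 RPKM in Vp16-TRF1ΔN cells. At 24 h Neurl1b was below Neurl1a in TRF1ΔN cells (3.50 against 4.04 RPKM) and above it in Vp16-TRF1ΔN cells (6.60 against 3.20 RPKM).

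Enzymes that glycosylate the receptor and proteases that cut it moved by less. Of 6 tested glycosylation genes, 2 rose (Eogt by 0.35 and Poglut1 by 0.30 on the log2 scale) and 1 fell, Rfng, the Radical fringe relative of Lfng (-0.52 ± 0.12, adjusted p = 0.0240), and DESeq2 called none of these 3. Of 10 tested cleavage genes, 5 rose and 1 fell by edgeR, while DESeq2 called 2 risen, Furin and Aph1b, and 0 fallen. Furin, the convertase that cuts the receptor during its passage to the surface, rose by 0.84 ± 0.15 (adjusted p = 0.0138). Aph1b, a γ-secretase subunit, rose by 0.82, but its reads may be shared with its near-identical copy Aph1c. Adam17, a sheddase, fell by 0.37 (adjusted p = 0.0204, and 0.0502 by DESeq2).

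In the nucleus, changes were small and in both directions. Of 9 genes of the activating complex, 2 rose (Maml2 by 0.70 and Maml1 by 0.32 on the log2 scale) and 3 fell, among them the DNA-binding subunit Rbpj (-0.53 ± 0.09, adjusted p = 0.0123, and 0.0513 by DESeq2) and the acetyltransferase Kat2b (-0.44). Rbpj went from 18.6 to 13.6 CPM in TRF1ΔN cells and from 21.2 to 13.9 CPM in Vp16-TRF1ΔN cells. Of 10 corepressor genes, 3 rose and 3 fell. L3mbtl3, which represses with RBPJ, rose by 1.14 ± 0.08 (adjusted p = 0.00152). Rita1, which exports RBPJ from the nucleus, fell by 0.58. DESeq2 called neither Maml1 (adjusted p = 0.189) nor Rita1 (adjusted p = 0.186), and it called none of the 10 corepressor genes fallen.

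Fhl1, a LIM protein with an isoform that binds RBPJ, had the largest ratio between the lines at 24 h of the named pathway genes. It had 40.3 and 4.85 CPM in TRF1ΔN cells and 61.9 and 31.4 CPM in Vp16-TRF1ΔN cells, which is 8.32-fold lower with TGFβ in the former and 1.97-fold lower in the latter. At 24 h it was 6.48-fold higher in Vp16-TRF1ΔN cells (5.57 to 7.56). The average change of -1.91 ± 0.51 passed edgeR's test (adjusted p = 0.0383) and not DESeq2's (adjusted p = 0.111).

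Among 12 genes of receptor turnover, 6 rose and 1 fell. Dtx4, a Deltex ubiquitin ligase that acts on the receptor, rose most, from 13.7 to 85.8 CPM in TRF1ΔN cells and from 11.7 to 61.2 CPM in Vp16-TRF1ΔN cells (2.52 ± 0.10, adjusted p = 0.000858). Its relative Dtx3 rose by 0.92, and Nle1 fell by 0.60.

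Whether Notch drives the genes on the list of other targets in these cells was not measured. Of the genes on that list 3 were tested and 1 rose, Bhlhe40, a basic helix-loop-helix repressor that also takes part in the circadian clock. It went from 36.0 to 302 CPM in TRF1ΔN cells and from 38.3 to 152 CPM in Vp16-TRF1ΔN cells (2.53 ± 0.28, adjusted p = 0.00393). Nrarp and Hes6, named here after their values were seen because the list holds so few, had log2 changes of 0.36 ± 0.18 (adjusted p = 0.162) and -0.07 ± 0.07 (adjusted p = 0.484).

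**Figure D5:**
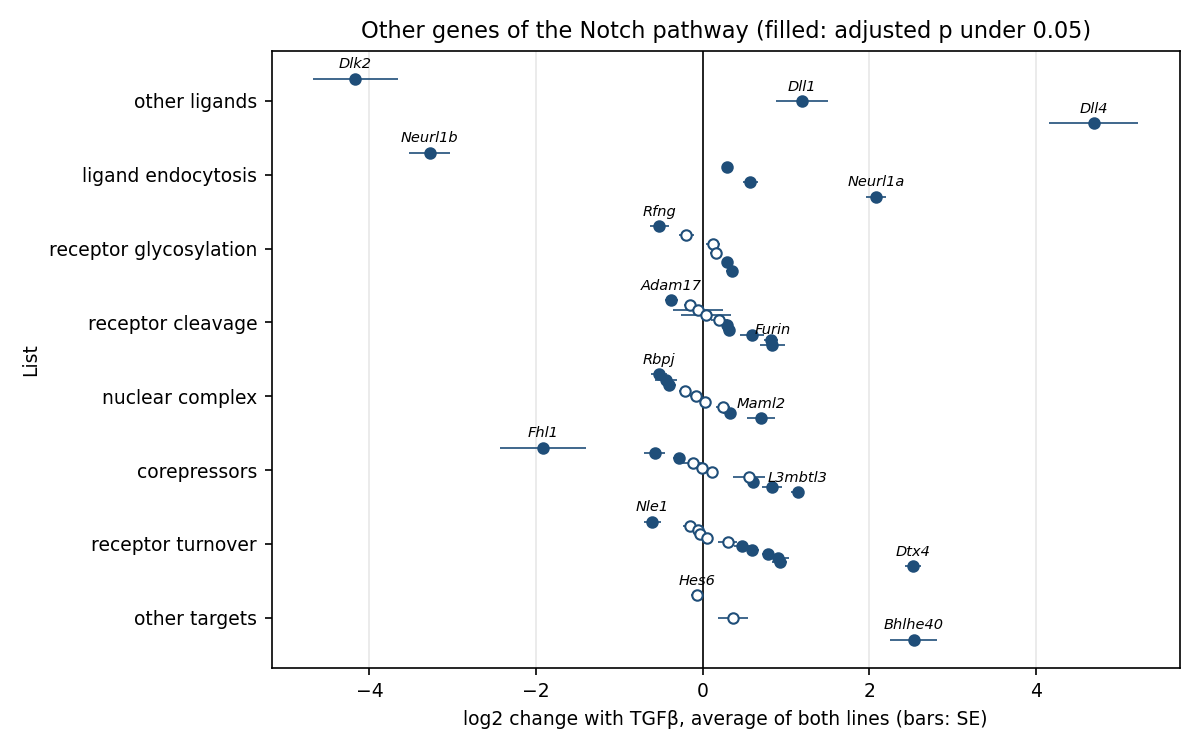
The log2 change with TGFβ averaged over both lines (x, bars show the SE) for the 57 tested genes of the other pathway lists, grouped by role (y), with filled points for an adjusted p under 0.05. The widest changes are Dlk2 at -4.17 and Neurl1b at -3.28 on the left and Dll4 at 4.69, Bhlhe40 at 2.53 and Dtx4 at 2.52 on the right.

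To place the 2 members with the strongest changes among all genes, the profiles over the 4 libraries (log2 CPM, centred) were compared with those of the 9677 genes that averaged 5 CPM or more. Nearest to Notch4 were Tnnt2 (distance 0.165 log2 units), the troponin T of cardiac muscle, Fhod3 (0.166), a formin, and Nuak1 (0.181), a kinase. Nearest to Notch1 were Selenop (0.214), a secreted selenium carrier, Tspan15 (0.253), a tetraspanin that partners ADAM10, and Sh2d4a (0.277), an SH2-domain adaptor. The order is a description over 4 libraries that share their depth and scaling.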

How the data were processed

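Total RNA with ribosomal RNA depleted was sequenced from 2 NMuMG lines at 0 h and 24 h of TGFβ, 1 library per group. Per the submitters' processing notes, the authors used FastQC, STAR, HTSeq and DESeq2 with the mm10 genome. No version is named, and for annotation and strand handling the answer is likewise "not given in the sources used here". Deposited raw counts per gene were the input of every test. The deposited normalized table held log2 values (pseudocount 1 after scaling by size factors), and served only as a check. Nothing in the labels ties libraries to separate cultures.

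Gene symbols and exon lengths came from GENCODE M21, and promoter sequences from RefSeq. In edgeR 4.0.16 (R 4.3.3), counts were TMM-scaled, filtered with filterByExpr and fitted with line and TGFβ as additive terms, leaving 1 residual degree of freedom. SE was taken from the F statistic (the absolute change over its root), and fitted intervals use it. The p-values measure only the spread of these 4 libraries around additivity, which may be technical. Ratios within a line or between lines are of CPM, with exact (Clopper-Pearson) 95% intervals, and differences of responses have Poisson intervals. The edgeR fit of the average TGFβ response was run on simulated counts with known TGFβ changes. Those counts had the same spread for all genes and no difference between the lines, unlike these data.

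The members and lists were chosen with earlier results of these data known. Named genes are all members and, of each other list, up to 2 called genes per direction by size plus those counted between the lines. A gene named by this rule is not reported here. The rule asked for the upstream sequences of Hes1, Hey1 and Heyl. Those of Notch1, Notch4, Jag1 and Lfng were chosen after their values were seen. Alternatives were DESeq2 1.42.0 (Wald test), its size factors, no filter, no mitochondrial genes, a 1.5-fold threshold and other prior counts.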

Additional observations from a re-analysis of the deposited data

Results flagged for a closer look

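Hey1 was singled out because it was lower with TGFβ in TRF1ΔN cells and higher in Vp16-TRF1ΔN cells, each beyond its counting interval. The responses differed by 1.59 on the log2 scale (Vp16-TRF1ΔN minus TRF1ΔN), from 197 and 110 counts against 132 and 200. The difference was not tested, since there is 1 library per group. Of the 11777 genes averaging 1 CPM or more, 187 had opposite directions of this kind.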

How the results depend on the processing

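Under the other scaling, no filter, no mitochondrial genes and DESeq2's Wald test, the 72 recomputed test results of members kept their direction and their side of the threshold, and moved by at most 0.05 on the log2 scale. All 72 recomputed member ratios stayed within their counting intervals. The Wald test called 21 other pathway genes with TGFβ (35 by edgeR), of which 4 fell (11 by edgeR), and the cause was not tested. At a 1.5-fold threshold, of the 8 members averaging 1 CPM or more, 7 were counted for TGFβ in Vp16-TRF1ΔN cells (4 at 2-fold). At that threshold 4 were counted between the lines at 24 h (2 at 2-fold) and 5 for the difference of responses (2 at 2-fold). These counts are higher by construction of the wider limit. Shares over all genes were taken at 2-fold only, so the 1.5-fold counts have no background to compare with. Exon lengths of basic transcripts were an alternative chosen after seeing the data. The labels give no replicate numbers to block on, and the edgeR fit already compares 24 h with 0 h within each line. Depth limits Notch3 and Dll4. A replicate could not be left out.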
